A study of Homo sapiens with 2 samples.

Results

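Broad distal regions are stretches of accessible chromatin in H1 cells that were at least 1200 bp wide and lay more than 2 kb from every annotated transcript start. They numbered 1259 of 160327 accessible regions, 0.785% of all regions, 1.05% of the 119870 distal ones and 15.5% of the 8116 regions of that width. H1 is an established line of human embryonic stem cells. Chromatin was mapped by ATAC-seq, in which the transposase Tn5 inserts sequencing adapters into open DNA. The cells were thawed from frozen stocks, treated with DNase I against free DNA, purified on Ficoll and tagmented as nuclei by the Omni-ATAC procedure. The only group holds 2 samples of H1 cells, replicates 1 and 2, which share 1 deposited list of 236878 summits, so no value exists per sample and no spread between replicates can be given. Whether these were separate cultures is not in the labels, and library depths were not analysed here.

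The members were chosen by measured values, the region edges set by the authors' peak call. Their width, number of summits, fold and p are therefore given as descriptions, without a test. Of their position the rule used only the distance to a start, of more than 2 kb, which the 118611 other distal regions share. Distances to starts are therefore described, while place within genes, neighbouring genes and sequence at fixed windows were compared between both groups. A share is called higher or lower where exact 95% binomial (Clopper-Pearson) intervals of both groups do not overlap. These intervals cover counting error over regions only, and regions close together or copied in the genome are not independent.

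Distal accessible regions include enhancers, at which transcription factors bind in clusters and displace nucleosomes, and insulators, which are bound by CTCF. Several binding clusters side by side can form one broad open stretch, and in embryonic stem cells such stretches occur near genes for factors such as SOX2. CpG islands, the unmethylated stretches rich in C followed by G at which most housekeeping and many developmental genes start, are another kind of open chromatin and can also lie far from annotated starts. Genes for tRNAs carry their control elements inside the gene, the A box and B box, and are transcribed by RNA polymerase III.

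The following sequences run from 50 bp before to 50 bp after the strongest summit of a member on the plus strand of hg38 (GRCh38), the one with the highest fold, except for the tRNA genes. The first pair shows the widest member, which also had the most summits and lies nearest CXXC5, and the member of highest fold, nearest TRIM32. Neither window held a match to the 29 motifs searched. These were fixed strings of 6 to 9 letters, so a window without a match may still hold a variant of a site.

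CXXC5 (chr5:139710441-139710541): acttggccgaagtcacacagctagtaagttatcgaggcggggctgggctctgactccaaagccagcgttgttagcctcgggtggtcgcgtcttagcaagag

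TRIM32 (chr9:116589583-116589683): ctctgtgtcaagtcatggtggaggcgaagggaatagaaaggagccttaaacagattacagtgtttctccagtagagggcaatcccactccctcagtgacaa

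The next 4 windows, of members nearest core pluripotency genes, show the octamer of POU5F1 and other POU factors (ATGCAAAT on either strand, in capitals) near TRIM71 and DPPA4 and, near SOX2, an E box (CAGCTG) followed by a TFAP2 match (GCCNNNGGC), also in capitals. The upstream TRIM71 window is the CpG-rich one of these 4. The windows nearest PODXL, JARID2, VRTN and SALL1, not shown, held no match to the motifs searched. That nearest DPPA2, also not shown, held only a TFAP2 match.

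TRIM71, upstream (chr3:32780951-32781051): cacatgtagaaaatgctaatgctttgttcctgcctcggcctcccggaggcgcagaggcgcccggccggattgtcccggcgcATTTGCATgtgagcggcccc

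TRIM71, intronic (chr3:32844142-32844242): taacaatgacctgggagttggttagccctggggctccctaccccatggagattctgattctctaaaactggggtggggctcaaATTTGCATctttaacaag

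DPPA4 (chr3:109355765-109355865): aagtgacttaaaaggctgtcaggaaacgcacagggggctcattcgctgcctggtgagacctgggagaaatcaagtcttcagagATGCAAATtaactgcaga

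SOX2 (chr3:181756829-181756929): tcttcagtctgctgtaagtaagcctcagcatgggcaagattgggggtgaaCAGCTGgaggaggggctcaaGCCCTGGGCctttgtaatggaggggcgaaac

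The next windows are CpG-rich summits with matches to motifs counted below. Capitals mark, on either strand, the GC box of SP and KLF factors (GGGGCGGGG) near SMAD7 and CCNE1, a TFAP2 and a GC box match near POU3F2, and a TFAP2 match running into 2 overlapping NRF1 matches (GCGCATGCG) near PTF1A. The 2 NRF1 matches come from the same palindromic stretch read on opposite strands, not from separate sites. These windows were picked after their values were seen.

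SMAD7 (chr18:48975872-48975972): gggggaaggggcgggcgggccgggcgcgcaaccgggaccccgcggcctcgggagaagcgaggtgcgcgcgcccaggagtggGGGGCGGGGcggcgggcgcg

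CCNE1 (chr19:29845097-29845197): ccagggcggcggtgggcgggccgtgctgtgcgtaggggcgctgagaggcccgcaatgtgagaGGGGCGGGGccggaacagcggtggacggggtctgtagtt

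POU3F2 (chr6:98824542-98824642): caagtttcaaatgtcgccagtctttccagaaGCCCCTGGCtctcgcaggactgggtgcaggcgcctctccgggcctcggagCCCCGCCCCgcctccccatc

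PTF1A (chr10:23199157-23199257): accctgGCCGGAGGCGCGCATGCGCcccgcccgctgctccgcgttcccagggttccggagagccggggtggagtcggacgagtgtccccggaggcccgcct

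The tRNA genes TRL-CAG2-1, TRL-CAG2-2 and TRQ-TTG1-1, which lie inside members, are shown in 121 bp of the plus strand centred on the gene, with the gene in capitals. The pair on chromosome 16, for tRNA-Leu, lies in 1 member of 1609 bp and reads on opposite strands, going by the B box (GTTCNANNC, found on the plus strand of TRL-CAG2-1 and the minus strand of TRL-CAG2-2).

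TRL-CAG2-1 (chr16:57299932-57300052): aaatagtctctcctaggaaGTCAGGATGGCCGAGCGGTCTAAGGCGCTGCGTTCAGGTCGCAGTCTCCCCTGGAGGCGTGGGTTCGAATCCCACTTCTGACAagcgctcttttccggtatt

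TRL-CAG2-2 (chr16:57300461-57300581): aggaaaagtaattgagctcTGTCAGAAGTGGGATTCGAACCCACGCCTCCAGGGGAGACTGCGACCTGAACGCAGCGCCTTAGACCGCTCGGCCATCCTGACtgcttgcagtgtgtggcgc

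TRQ-TTG1-1 (chr17:49192504-49192624): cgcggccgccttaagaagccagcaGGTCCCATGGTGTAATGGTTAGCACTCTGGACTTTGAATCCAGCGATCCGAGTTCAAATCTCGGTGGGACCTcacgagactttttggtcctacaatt

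Broad distal regions typically held 3 summits, where other distal regions held 1. The median width was 1331 bp (10th to 90th percentile 1218 to 1637 bp, at most 2725 bp), against 414 bp in other distal regions. Of the members, 240 were at least 1500 bp wide and 14 at least 2000 bp, and together they covered 1746 kb, 3.11% of the distal accessible length. The number of summits was 1 in 27 members, 2 in 172, 3 in 446, 4 in 402, 5 in 163, 6 in 38, 7 in 8, and 8, 9 and 10 in 1 each. The 27 members with 1 summit had a median fold of 6.09. One of them, 39104 bp upstream of GPC4 (chrX:133454190-133455390, 1201 bp), had a fold of 11.8. In all, 97.9% of members had more than 1 summit, against 23.4% of other distal regions. A width of at least 1200 bp gives room for more summits, so this contrast follows in part from how the members were chosen.

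**Figure D1:**
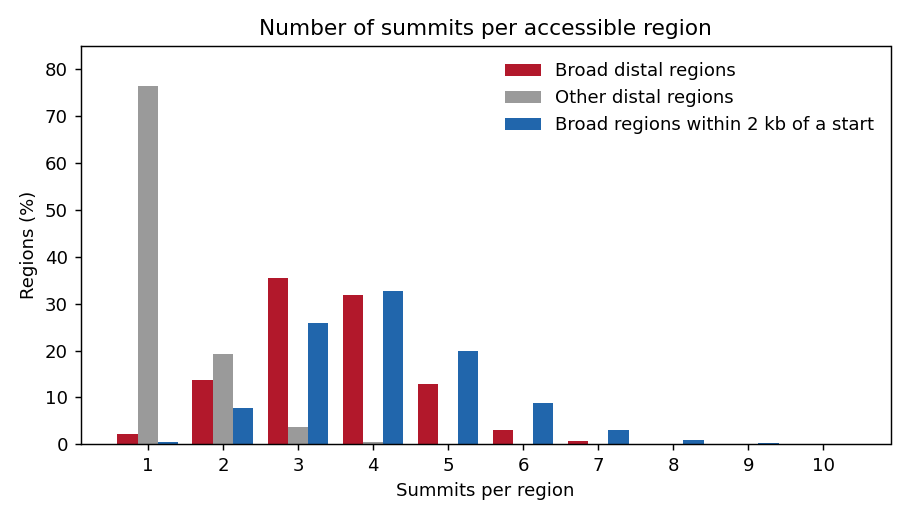
Number of summits per region (x axis) against the percentage of regions in each set (y axis), for the 1259 broad distal regions (red), the 118611 other distal regions (grey) and the 6857 equally broad regions within 2 kb of a start (blue). Broad distal regions centred on 3 and 4 summits, with 35.4% and 31.9% of members, while most other distal regions had 1.

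The median fold over background, the authors' value at the strongest summit, was 7.73 in members (10th to 90th percentile 4.51 to 12.2, range 2.44 to 20.3). It was 5.17 in other distal regions, whose maximum of 52.3 no member approached, and 9.17 in broad regions within 2 kb of a start. The highest −log10 p of any summit in a region had a median of 69.3 in members and 24.2 in other distal regions. Neighbouring summits in a member lay a median of 298 bp apart (10th to 90th percentile 207 to 504 bp, 3184 pairs), against 259 bp in other distal regions with several summits. The weakest summit of a member had a median of 0.408 of the fold of its strongest one, against 0.558 in other distal regions with several summits. More summits leave more room for a weak one, and a wider region for wider spacing. Both contrasts therefore follow in part from how the members were chosen. The strongest summit lay off the region's centre by a median of 17.6% of the width in members and 19.3% in other distal regions.

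The median fold changed little across both limits that defined the members, and the median number of summits was equal across the width limit. The 69 members of 1200 to 1209 bp had a median fold of 8.74 and a median of 3 summits, and the 78 distal regions of 1190 to 1199 bp had a median fold of 8.40 and also 3 summits. The 9 broad regions that began 2001 to 2200 bp from a start had a median fold of 7.73, and the 11 at 1801 to 2000 bp had 7.77.

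The widest members differed from each other in how their summits were spread. The widest lay in an intron 63192 bp downstream of the 5′ end of CXXC5, which encodes a zinc finger protein of a CpG-binding family (chr5:139709064-139711788, 2725 bp), and held 10 summits of similarly low fold, from 1.88 to 4.08. The member upstream of MYO16, an unconventional myosin (chr13:108494697-108497023, 2327 bp), had 9 summits with folds of 2.92 to 5.48. The member upstream of SLC44A5, a choline transporter-like protein (chr1:75614482-75616777, 2296 bp), had 8 summits, with folds of 2.56 to 8.91. By contrast, the member upstream of GPR84, a receptor for medium-chain fatty acids (chr12:54368698-54370807, 2110 bp), held only 2 summits, at −912.5 bp and 680.5 bp from its centre, and the stronger one lay in coding sequence with a fold of 7.26.

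The other regions among the 10 widest lay nearest SGCD (2460 bp, 6 summits), TACR3 (2404 bp, 6 summits), PRR20A (2254 bp, 4 summits), ELAVL2 (2199 bp, 6 summits), KRTCAP2 (2138 bp, 7 summits) and HMGA2 (2096 bp, 7 summits). ELAVL2 encodes a neuronal RNA-binding protein and HMGA2 an architectural chromatin protein. The HMGA2 member (chr12:65740883-65742978), 82947 bp upstream of the gene, had the highest fold among these wide regions at 10.8, with 2.83 at its weakest summit. The distance to the nearest protein-coding 5′ end ranged from 3759 bp at SLC44A5 to 1562803 bp at PRR20A, so the gene name is only a marker of place for the farthest ones. Of the 8 members with 7 summits, KRTCAP2 and HMGA2 apart, those nearest SORCS1, NAV2, RREB1, TBX18 and PRDM13 are named by the rule for the 10 with most summits and stood at folds of 6.29 to 11.8.

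**Figure D2:**
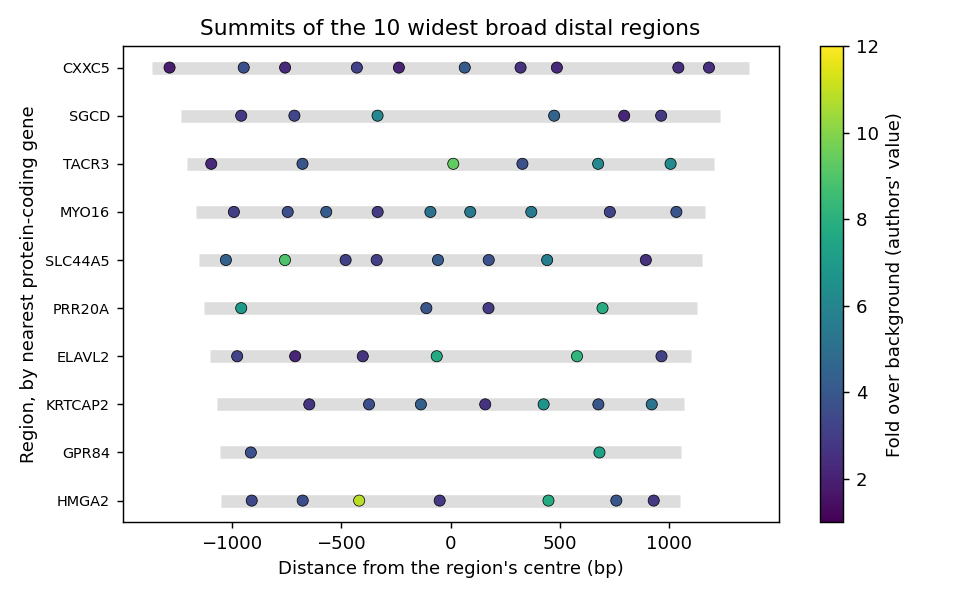
Summits (points) along the 10 widest broad distal regions (grey bars), named by the nearest protein-coding gene, against distance from the region's centre in bp; colour gives the authors' fold at each summit. The CXXC5 region at the top carries 10 summits with folds up to 4.08, and the GPR84 region 2 summits toward its ends.

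The members of highest fold were narrower and had fewer summits than the widest ones. None of the 10 highest by fold was among the 10 widest. The highest fold, 20.3, was that of a 1265 bp member with 3 summits in an intron (chr9:116589404-116590668), 97672 bp upstream of TRIM32, a ubiquitin ligase. It was followed by members nearest THSD7B (20.0, chr2:136510031-136511258), MARCHF1 (19.6, chr4:164011798-164013116), CFHR4 (18.8), RORB (18.2), HMSD (18.1), ZFAT (17.8), KHDRBS2 (17.7), CCDC141 (17.6) and ENTREP1 (17.6). Their widths ran from 1203 bp to 1478 bp and their summits from 2 to 5. At the THSD7B member the weakest summit had a fold of 2.19, against 20.0 at the other. The octamer was found at the strongest summits of the THSD7B and KHDRBS2 members, and 2 of these 10 members, nearest CFHR4 and HMSD, were CpG-rich.

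Broad distal regions lay between genes more often than other distal regions did. The strongest summit was intergenic in 614 members, 48.8% (interval 46.0 to 51.6%), against 38.5% (38.2 to 38.8%) of other distal regions, and intronic in 44.96% (42.2 to 47.8%) against 57.7%. Coding sequence held the summit in 38 members, 3.02% (2.14 to 4.12%), against 1.15% (1.09 to 1.21%). Of these 38 members, 31 were CpG-rich, as defined below. UTRs held 1.75% of member summits and 1.47% of those of other distal regions, and other exons 1.51% and 1.19%. Over all 160327 regions 35.1% of strongest summits were intergenic, 54.8% intronic and 2.00% in coding sequence.

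Distances to genes differed between CpG-rich members and the rest, defined below, so those of all members mix both. The median distance from a region's edge to the nearest annotated start was 16123 bp for members and 18133 bp for other distal regions. Members at 2 to 5 kb from a start made up 15.4% (13.5 to 17.5%), against 14.1% (13.9 to 14.3%). Members at 5 to 10 kb made up 20.2% (17.99 to 22.5%), against 17.7% (17.5 to 17.9%). Members at 50 to 100 kb made up 10.5% (8.85 to 12.3%), against 13.5% (13.3 to 13.7%), and those beyond 100 kb 5.48% (4.29 to 6.89%), against 7.47% (7.32 to 7.62%). A protein-coding 5′ end lay within 100 kb of the strongest summit of 735 members, 58.4% (55.6 to 61.1%), against 50.3% (50.0 to 50.5%) of other distal regions. Among those, 50.6% of members (46.9 to 54.3%) lay upstream of the gene, against 45.6% (45.2 to 46.0%). The kind of nearest start was close to that of other distal regions: protein-coding in 39.6% against 40.6%, and lncRNA in 32.6% against 30.9%.

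Of the members 83, 6.59%, lay within 50 kb of another member, in 37 pairs and 3 groups of 3. The median gap to the next accessible region was 7286 bp for members and 5177 bp for other distal regions, and the median number of other regions within 50 kb was 6 for both. By chromosome, members made up from 0.742% of distal regions on chromosome 13 to 2.36% on chromosome 19 (28 of 1188), with 1.73% on chromosome 17.

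CpG-rich summits were more frequent in members than in other distal regions. A summit was called CpG-rich where the sequence from 150 bp before to 150 bp after it had at least 50% G+C and a ratio of observed to expected CpG of at least 0.6. This held for 303 members, 24.1% (21.7 to 26.5%), against 2592 other distal regions, 2.19% (2.10 to 2.27%), and 2.42% of the 62854 other distal regions with a fold between the 10th and the 90th percentile of the members' fold. Broad regions within 2 kb of a start were CpG-rich in 86.4%, and all 160327 regions in 12.4%. The median G+C content of that window was 54.8% in members (10th to 90th percentile 39.9 to 71.1%), 45.5% in other distal regions and 69.8% in broad regions near starts. The ratio of observed to expected CpG had medians of 0.305 in members, 0.173 in other distal regions and 0.846 in broad regions near starts.

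The CpG-rich share increased with width across all distal regions. It was 0.876% below 250 bp, 1.18% from 250 to 500 bp, 2.65% from 500 to 750 bp, 6.71% from 750 to 1000 bp and 11.2% from 1000 to 1200 bp. Among members it was 21.6% from 1200 to 1500 bp and 34.6% (28.6 to 41.0%) from 1500 bp on. Intervals of neighbouring steps did not overlap. At the width limit itself the small sets ran the other way, with 14.5% of the 69 members at 1200 to 1209 bp and 20.5% of the 78 regions at 1190 to 1199 bp. At the distance limit, 33.3% of the 9 broad regions 2001 to 2200 bp from a start were CpG-rich. Of the 11 at 1801 to 2000 bp, 45.5% were, and sets this small do not show whether the share changes there. With the number of summits the share ran the same way as with width: 40.1% of the 212 members with 5 or more summits were CpG-rich, against 13.1% of the 199 with 1 or 2.

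**Figure D3:**
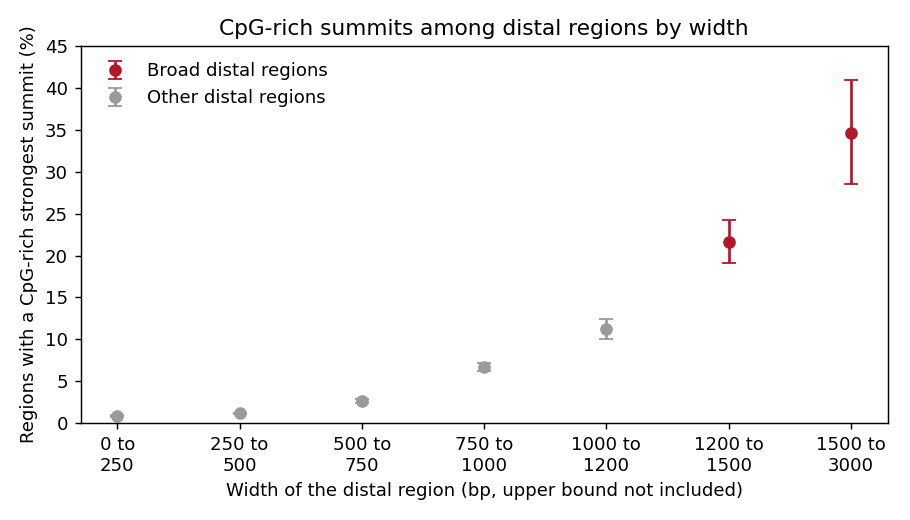
Percentage of distal regions whose strongest summit was CpG-rich (y axis) by the width of the region in bp (x axis), with exact 95% intervals; red points are broad distal regions and grey points other distal regions. The share is 0.876% in the narrowest step and 34.6% in the widest.

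CpG-rich members and the remaining 956 lay in different places. CpG-rich members had a median distance to a start of 9601 bp, against 19429 bp for the others, and a protein-coding 5′ end within 100 kb in 79.2% (74.2 to 83.6%), against 51.8% (48.6 to 55.0%). The summit lay in coding sequence in 31 CpG-rich members, 10.2%, and in 7 of the others, 0.732%. Introns held 31.7% of CpG-rich summits and 49.2% of the others. Their widths (median 1381 bp and 1320 bp) and folds (median 7.60 and 7.80) were close.

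Some members overlapped gene starts of RefSeq at places where the GENCODE annotation has none within 2 kb. Among the 1191 members on chromosomes covered by the RefSeq table used here, which left 68 members uncounted, 39 held the start of a RefSeq gene, 3.27%, against 0.408% of other distal regions. Since members are wider, starts within 500 bp of the strongest summit were also counted, and these were found for 2.27% of members and 0.576% of other distal regions. Of the 39, 30 belonged to genes known only by a LOC number, and 21, 53.8%, were CpG-rich. The widest member held the start of LOC124901085, and the ELAVL2 member that of LOC105375993. The NAV2 member (chr11:19344905-19346757, 7 summits, fold 10.9) held a RefSeq start of NAV2 itself, a gene for a neuron navigator protein. The counts of RefSeq starts and of tRNA genes were made after the values of the members were seen and are given without a call.

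Genes for tRNAs lay inside 22 members, 1.75%, and inside 0.136% of other distal regions. The share was 0.182% over all regions and 0.452% in broad regions within 2 kb of a start. These 22 members count as distal because the annotated starts used by the rule do not include the tRNA genes inside them. Per Mb of accessible sequence the members held 19.5 tRNA genes and other distal regions 3.07. The 22 members held 34 of the 443 tRNA genes in the RefSeq gene table, 12 members with 2 genes and 10 with 1, while 289 lay in other accessible regions and 120 in none. The tRNA gene was within 150 bp of the strongest summit in 15 of them, 1.19% of members against 0.116% of other distal regions. Of the 22, 17 were CpG-rich and 7 had a near copy of the summit sequence elsewhere in the genome. The folds of the 22 ran from 5.10 to 10.9.

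The member that holds TRL-CAG2-1 and TRL-CAG2-2 (chr16:57299475-57301083) had 5 summits and a fold of 10.4. The one with TRQ-TTG1-1, a tRNA-Gln gene (chr17:49191892-49193282), had 4 summits and a fold of 10.9. The B box string was found in 390 of the 443 tRNA genes, 88.0%, and in 33 of the 34 inside members. As a string it is common: 2.14% of the members' summit windows, 2.47% of those of other distal regions and 2.35% of those of all regions held it. The 3 members upstream of FCGR2A, an immunoglobulin receptor gene, each held a tRNA-Glu and a tRNA-Gly gene (chr1:161446755-161448180, chr1:161454153-161455569 and chr1:161461548-161462989). Each of these had 3 near copies elsewhere in the genome, so reads may not have been assigned to one of them with certainty, and their folds of 7.84, 8.43 and 7.59 are to be read with that limit. In all, 34 members, 2.70%, had a near copy of the sequence within 150 bp of the summit, against 1.95% of other distal regions, with overlapping intervals. A stretch of at least 50 bp with 80% identity to mitochondrial DNA, whose reads ATAC-seq libraries often carry, was found in 1 member, 0.0794%, against 12 other distal regions, 0.0101%, with intervals that overlapped. That member, nearest RTP4, matched over 71 bp at 83.1%.

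The GC box of SP and KLF factors, TFAP2, KLF, the MYC-type E box and NRF1 were found at the strongest summit of members more often than at that of other distal regions. Each of 29 motifs, written as strings of 6 to 9 letters, was searched on both strands within 50 bp of the summit. Shares were higher for 5 motifs (17.2% of those searched), lower for 2 (6.9%) and overlapping for 22. The GC box was found at 58 members, 4.61% (3.52 to 5.91%), against 0.696% of other distal regions (0.649 to 0.744%), a ratio of 6.62. TFAP2 motifs were found at 99 members, 7.86% (6.44 to 9.49%), against 3.51% (3.41 to 3.62%). The KLF motif (GGGNGTGGC) was found at 2.46% against 0.901%, and the E box of MYC and USF (CACGTG) at 2.38% against 1.12%. The 30 members with that E box include the 3 upstream of FCGR2A. Their summits have near copies elsewhere in the genome, so they do not count as independent. NRF1, a regulator of genes for mitochondrial function, had its motif at 4 members, 0.318% (0.0866 to 0.811%), against 0.0320%. All 4 were CpG-rich, and the share was 0% at a minimum width of 1500 bp, at the first summit in position and without CpG-rich summits, which ends the call. The call for the MYC-type E box was also lost in these 3 settings, and that for KLF beyond 10 kb from a start. The first summit is the strongest one in regions with 1 summit, 76.6% of other distal regions and 2.14% of members. That setting therefore does not treat both sets alike. Broad regions within 2 kb of a start held the GC box in 17.8%, TFAP2 in 17.0% and KLF in 3.59%. They held the MYC-type E box in 3.40% and NRF1 in 1.33%, so none of these 5 shares was highest in members.

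The motif of AP-1, the FOS and JUN dimer (TGANTCA), was found less often in members, at 3.42% (2.48 to 4.57%) against 4.99% (4.86 to 5.11%). The motif of TCF and LEF factors of the WNT pathway (ATCAAAGG) was found at 1 member, 0.0794% (up to 0.442%), against 0.481% (0.443 to 0.522%). Neither call held at a minimum width of 1000 bp or 1500 bp, within 25 bp of the summit or without CpG-rich summits. Over all 160327 regions the share of windows with a match was 2.60% for the GC box, 5.17% for TFAP2, 1.27% for KLF, 1.47% for the MYC-type E box, 0.193% for NRF1, 4.50% for AP-1 and 0.427% for TCF/LEF. Against the other distal regions of like fold, again 5 motifs were higher (17.2%) and 2 lower (6.9%), and the lower ones were AP-1 and CTCF. A KLF match and a GC box match were both found in 6 member windows, and a GC box and a TFAP2 match also in 6.

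For the motifs of pluripotency factors the intervals of members and other distal regions overlapped. The octamer was found at 37 members, 2.94% (2.08 to 4.03%), against 2.61% (2.52 to 2.70%). At the first summit in position it was lower, at 1.27% of members against 2.46%, and at a minimum width of 1000 bp it was higher, at 3.26% against 2.59%. The first-summit setting leaves regions with 1 summit unchanged, so it does not treat members and other distal regions alike. The inner part of the joint SOX2 and POU5F1 site (TTGTNATGC) was found at 1.35% against 1.07%, and the SOX motif (ACAATGG) at 3.02% against 2.69%. The ZIC motif (CAGCAGGNG) was found at 4.05% against 3.88%, the TEAD motif (ACATTCC) at 3.42% against 4.41%, and the part of the CTCF site searched (CCACNAGGG) at 1.27% against 2.13%. These intervals overlapped as well. Over all regions the shares were 2.31% for the octamer, 0.930% for the joint site and 2.36% for SOX.

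Compared with windows 500 bp outside the members' own edges, 8 motifs were more frequent at the summit (27.6%) and 0 less frequent (0%). They included the octamer (2.94% against 0.556% in the flanks), the joint SOX2 and POU5F1 site (1.35% against 0.0795%), SOX (3.02% against 1.19%) and ZIC (4.05% against 0.238%). The others were KLF, the GC box, the E box CAGCTG and TFAP2. Flanks of other distal regions were not compared, so whether these gains are particular to members was not tested. The part of G+C content in them was not tested either. With all 4443 summits of members searched, 59 members, 4.69%, held an octamer, 127, 10.1%, a GC box and 269, 21.4%, a TFAP2 match. This search covers more windows per member than that of the strongest summit alone. It was run for members only, so these shares cannot be set against those above or against other distal regions.

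**Figure D4:**
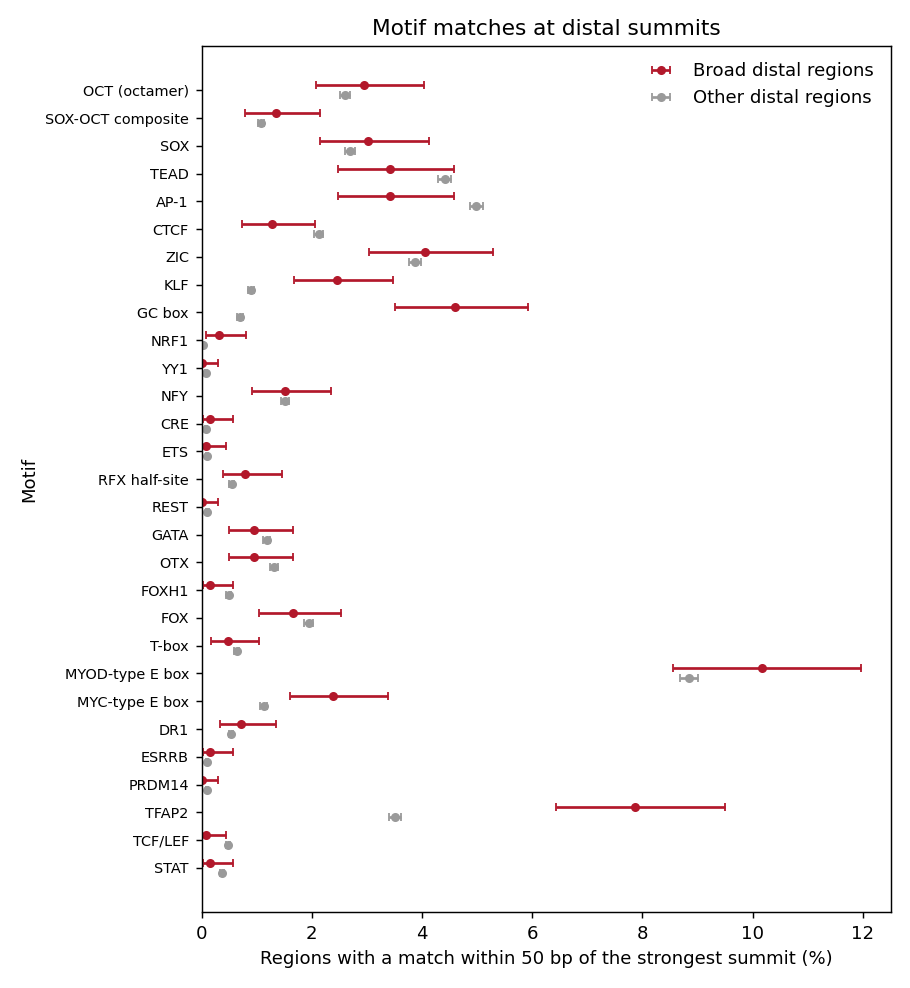
Percentage of regions with a motif match within 50 bp of the strongest summit (x axis) for each of the 29 motifs (y axis), with exact 95% intervals; red points are the 1259 broad distal regions and grey points the 118611 other distal regions. The intervals stand apart for GC box, TFAP2, KLF, MYC-type E box and NRF1, higher in broad distal regions, and for AP-1 and TCF/LEF, lower.

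CpG-rich members differed from the others in their motifs. Of the 29 motifs, 2 were higher in CpG-rich members (6.9%) and 2 lower (6.9%). The GC box was found at 11.2% of CpG-rich members against 2.51% of the others, and TFAP2 at 16.2% against 5.23%. The SOX motif was found at 0.660% against 3.77%, and TEAD at 0.660% against 4.29%. With CpG-rich summits left out of both sets, 4 motifs were higher in members than in other distal regions (13.8%) and 0 lower (0%): the GC box at 2.51% against 0.561%, TFAP2 at 5.23% against 3.26%, KLF at 2.09% against 0.871% and the E box CAGCTG at 11.4% against 8.87%. The median G+C content of these sets still differed, at 49.8% in members and 45.5% in other distal regions, and its part in the motif shares was not tested. Nor was that of Tn5 sequence preference, for which the deposited list gives no value.

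Most members had no partner at the same gene. The 735 members with a protein-coding 5′ end within 100 kb were assigned to 695 genes, 3.47% of the 20007 protein-coding genes, of which 659 had 1 member, 32 had 2 and 4 had 3. The genes with 3 were EPHB3, an ephrin receptor, LARP1, an RNA-binding regulator of translation, SPAG6, a sperm axoneme protein, and FCGR2A, whose members held the copied tRNA genes. Around EPHB3 the folds were low, at 6.22, 3.19 and 2.83, and around LARP1 higher, at 10.1, 8.35 and 8.24. Among genes with 2 members, those of greatest summed width were CXXC5, HCN4, a pacemaker channel, ARHGEF4, PTF1A, a pancreatic and neural bHLH factor, TRIM71 and KCNMA1, a potassium channel.

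Core pluripotency genes had broad distal regions most often among the 10 gene lists examined. Of 30 such genes 9 had at least 1, 30% (14.7 to 49.4%), against the 3.47% of all protein-coding genes. They were SOX2, PRDM14, DPPA2, DPPA4, TRIM71, VRTN, PODXL, SALL1 and JARID2. The interval of this share overlapped those of the other 9 lists. Per region, 11 of the 187 distal regions assigned to these genes, 5.88% (2.97 to 10.3%), were broad, against 1.22% (1.13 to 1.31%) over all genes. The lists were chosen with earlier results of these data known.

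SOX2, a core pluripotency factor, had a member 44954 bp downstream, in an intron, with the nearest annotated start that of the overlapping transcript SOX2-OT (chr3:181756026-181757228, 1203 bp), with 2 summits and folds of 12.7 and 8.35. PRDM14, a repressor that keeps the pluripotent state, had 2 members downstream of its 5′ end, with folds of 15.0 (chr8:70060742-70061998) and 5.13 (chr8:70034546-70035754). TRIM71, an RNA-binding protein of early development, had one 36996 bp upstream of its 5′ end (chr3:32780271-32781826, fold 10.5, 4 summits) and one in an intron 26195 bp downstream of it (chr3:32842935-32844593, fold 6.24, 5 summits). The strongest summits of both TRIM71 members held an octamer, printed above, although only the upstream one was CpG-rich, with 68.8% G+C against 47.8%.

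DPPA2 and DPPA4 are neighbouring genes for a pair of chromatin factors of the early embryo. The member nearest DPPA4 (chr3:109355632-109357120) had a fold of 9.51 and an octamer at its strongest summit, and the one nearest DPPA2 (chr3:109324834-109326089) a fold of 4.22. It was assigned to DPPA2 by outermost 5′ ends, 8903 bp away, while the nearest annotated transcript start, at 4671 bp, belongs to DPPA4. The VRTN member (chr14:74326235-74327512) had a fold of 12.6, that of JARID2, a Polycomb cofactor (chr6:15207824-15209103), 10.9, and that of PODXL, a surface sialomucin (chr7:131604753-131606154), 8.16. SALL1, a zinc finger factor, had the lowest but one fold of the set, 4.45, at a CpG-rich member (chr16:51134101-51135362). Of the 11 members of core genes, 2 were CpG-rich.

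Lists of signalling, lineage and housekeeping genes had lower shares than core pluripotency genes, with wide intervals. Like that of core pluripotency genes, 3 intervals lay above that of all protein-coding genes (3.22 to 3.74%). These were self-renewal signalling (6.06 to 36.9%), neuroectoderm (4.54 to 36.1%) and housekeeping (4.54 to 36.1%). Those of the remaining lists overlapped it. Self-renewal signalling genes had a member at 5 of 28 (17.9%): FGFR1, FGFR2 and FGFR3, receptors for fibroblast growth factors, SMAD7, an inhibitor of TGF-beta signalling, and BMP4. The FGFR2 member (chr10:121579586-121581339, 1754 bp) had a fold of 8.91, that of SMAD7 4.00 and that of BMP4 4.73. Neuroectoderm genes had one at 4 of 25 (16%), SOX1, SOX11, POU3F1 and POU3F2, and mesoderm and endoderm genes at 3 of 25 (12%), HAND2, FOXA2 and TWIST1. Genes of the primed pluripotent state had one at 2 of 15 (13.3%), OTX2, with a fold of 2.84, and GPC4, with 2 members of folds 11.8 and 7.87.

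Housekeeping genes had a member at 4 of 25 (16%), among them ACTB, which encodes a cytoskeletal actin, EEF1A1, a translation elongation factor, and YWHAZ. Per region their share was the highest, 4 of 40 distal regions or 10% (2.79 to 23.7%). Cell cycle genes had a member at 1 of 27 (3.70%), CCNE1, a cyclin of the G1 to S transition, with a fold of 10.2. Markers of other cell types had one at 1 of 15 blood genes (CD34), 0 of 15 liver genes and 0 of 15 skin genes, and for lists of that size a count of 0 allows up to 21.8%.

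**Figure D5:**
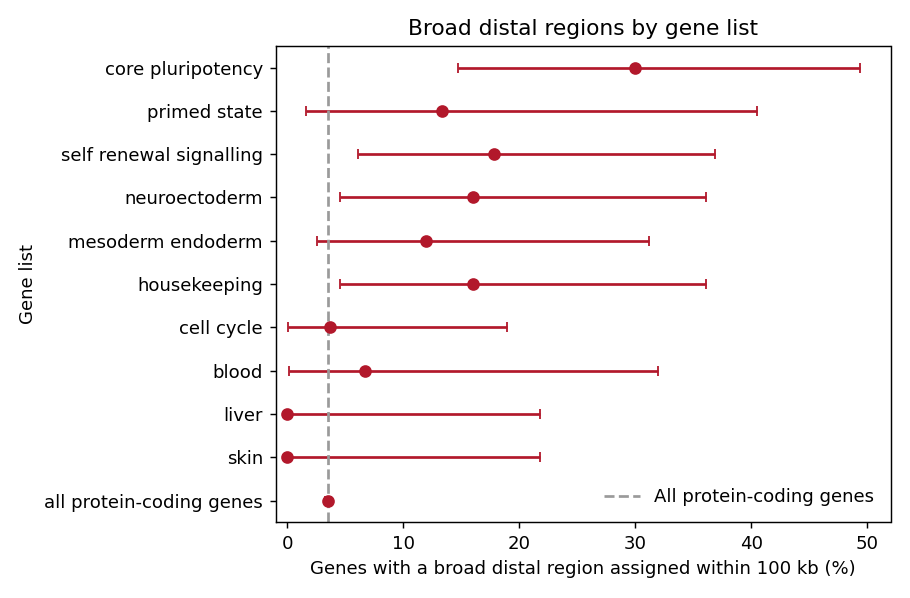
Percentage of the genes of each list with a broad distal region assigned within 100 kb of their 5′ end (x axis), with exact 95% intervals; the dashed line is the share over all 20007 protein-coding genes, 3.47%. Core pluripotency genes stand at 30%, and liver and skin genes at 0.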

How the data were processed

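ATAC-seq had been run on 2 samples of H1 cells that share 1 peak list, so values are those of the list and not of a sample. The list was deposited by the authors in narrowPeak layout, 1 row per summit, with the build GRCh38 per the submitters' processing notes. The sample descriptions name it as an optimal set from an overlap, while nothing used here gives the aligner, peak caller, settings, read shift or pooling. No header names the columns, so their meaning was read from the narrowPeak layout: the deposited fold was taken as a ratio over an undescribed background, the deposited −log10 p and −log10 q as the peak caller's, and the deposited score as a capped display value. Score and −log10 q were not used.

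Rows with equal chromosome, start and end were joined into 1 region, placed at its summit of highest fold. Starts came from 219270 transcripts of GENCODE release 44, and sequence from hg38. RefSeq starts and tRNA genes came from tables of GRCh38.p14, and starts on chromosome 8 were not analysed here. Summit positions were classed as coding sequence, UTR, other exon, intron or intergenic. Each region took as its gene the protein-coding one whose outermost 5′ end was nearest to the strongest summit, up to 100 kb away. Flanks were windows of the same length as the summit windows, 500 bp outside the edges. Near copies of at least 200 bp at 90% identity were found with minimap2 2.31, and mitochondrial matches of at least 50 bp at 80% identity with BLAST 2.17.0. Scripts used Python 3.11.15, pandas 2.3.3, scipy 1.17.1 and pysam 0.24.0, and were tested on simulated data. Overlap of exact intervals was used because no replicate values exist.

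The members and lists were chosen with earlier results of these data known. Named were the 10 widest members, the 10 of highest fold, the 10 with most summits, the 10 protein-coding genes nearest to most members, the core pluripotency genes with a member and the first 3 genes of each other list. Some items under this rule are not reported here. Alternatives varied the width limit, the distance to a start, the starts used, the p threshold, the comparison set and the windows. Repeat content was planned but not run, since the sequence used carries no repeat mask.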

Additional observations from a re-analysis of the deposited data

How the results depend on the processing

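All values come from 1 list without depths or replicate values, so counting error over regions is the only error given, no replicate could be left out, and the share of repeats was not run. No paired analysis was possible because the 2 samples form 1 group and share 1 list. The higher share of intergenic and of CpG-rich summits in members than in other distal regions held under every alternative run for them. The number of broad distal regions was 3893 at a minimum width of 1000 bp, 240 at 1500 bp and 811 at more than 10 kb from a start. The number of motifs whose shares stood apart, 7 as reported, was 3 at 1500 bp, 3 beyond 10 kb, 12 with protein-coding starts only, 4 within 25 bp of the summit and, chosen after seeing the data, 4 without CpG-rich summits. The share of protein-coding genes with a member was 9.45% at 1000 bp, 0.710% at 1500 bp, 1.85% beyond 10 kb, 5.09% with protein-coding starts only, 2.95% for regions with a −log10 p above the median, 2.46% within 50 kb and 5.13% within 500 kb. No member matched mitochondrial DNA over 100 bp (0%).

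The direction turned for a few motifs, the cause of which was not tested. The octamer was lower at the first summit in position, 1.27% of members against 2.46% of other distal regions. That setting can move the window only in regions with several summits, 97.9% of members and 23.4% of other distal regions. It therefore does not treat both sets alike. NRF1, higher as reported at 4 members, was at 0% at 1500 bp, at the first summit and without CpG-rich summits. ETS became higher at 1000 bp (0.257%) and with protein-coding starts only (0.506%), and NFY with protein-coding starts only (2.31%).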
